A study of Mus musculus with 6 samples.

Results

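Potassium channel genes were followed in mouse retina on 6 dual-colour Agilent arrays. Members were the genes whose symbol starts with Kcn, which names the subunits of potassium channels and the proteins that join them, and each was read from its brightest probe. Of 97 such symbols in the reference table, 92 were on the array, among 32496 genes in all, and 5 were not. They include the non-coding RNA genes Kcnq1ot1 and Kcnmb4os1, which are named for a channel gene and encode no subunit.

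The study asked how SH-42 and SH-80, compounds known here by their code names alone, change retinal gene expression. Adult male C57BL/6 mice, 12 in each group, had received SH-42, SH-80 or, as the control, phosphate-buffered saline into the right vitreous, with 1 µM given as the dose, and retinas were taken after 7 days. Tubes held pools of 4 retinas, and each compound has 3 arrays with a control in the other channel. No genetic change was named for any group, and all mice shared strain and sex.

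By the labels, Cy3 (green) carried the compound's RNA and Cy5 (red) the control's on each of the 6 arrays. Ratios are therefore given as log2 of Cy3 over Cy5. The deposited value table runs the other way, Cy5 over Cy3, and the names of the scanner files put the control first. Which channel held the control thus rests on the labels alone. The dyes were never exchanged, so that compound and dye cannot be told apart and a sign below is a sign between dyes. Whether arrays shared a control pool is not stated, and a p-value here measures only the spread between these arrays, which may be technical. In bulk tissue, fewer cells of a type and less RNA per cell cannot be told apart.

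Potassium channels let potassium ions leave the cell and so set the resting potential, end action potentials and shape the light responses of photoreceptors. Voltage-gated alpha subunits (Kv1 to Kv4, Kv7 and the EAG, ERG and ELK group) form the pore, silent modifier subunits join Kv2 partners, and auxiliary proteins change gating or traffic. Inward rectifiers and tandem-pore channels pass current near rest, and calcium- or sodium-activated channels couple the membrane to ions inside the cell. In the retina, photoreceptor inner segments are known for channels that hold the silent subunit of Kcnv2, and the pigment epithelium for the Kcnj13 product.

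A gene was tested if, on 3 or more arrays, Cy3 or Cy5 of its probe stood well above background. This left 73 of the 92 members, of 24061 genes tested, and 53 members were above background in both channels on all 6 arrays. Mean log2 signals ran from 6.89 to 15.07 with a median of 9.10 among tested members, and from 6.49 to 6.97 among the 19 that were not tested. Of these 19, 9 were above background in neither channel on any array, among them Kcnn1, a small-conductance calcium-activated channel. The other 10, including the tandem-pore channel Kcnk2, passed on some arrays. Just inside the limit lay Kcnq1 and Kcnj2 with 3 arrays, and Kcnk9 and Kcnh1 with 4, and just outside it Kcne4, Kcnq3, Kcnn4 and Kcnt2 with 2. For 12 tested members the Cy3 signal was not well above background on any array.

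By array, 58.3% to 63.1% of spots stood above background in Cy3, and 70.9% to 76.7% in Cy5, and no spot was marked as saturated. Markers of rods, cones, bipolar, amacrine, ganglion and Müller cells all passed the filter, and so did those of lens, skeletal muscle and surface epithelium. SH-42 replicate 1 stood apart from the rest: across all genes, the 5 correlations of its log2 ratios with the other arrays lay between -0.16 and 0.16, whereas the other 10 pairs gave 0.47 to 0.87. Calls, medians and several single values are also given from fits without it. SH-42 replicates 1 and 2 were on one slide, and SH-42 replicate 3 and the SH-80 arrays on the other. A fixed slide block was thus set by SH-42 replicate 3 against replicates 1 and 2 alone. Its SH-80 values carry that gap, replicate 1 included, and cannot show a slide effect on SH-80.

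Promoter sequences are shown for the members past the threshold in the tests below, whose mean ratios of Cy3 over Cy5 were all negative. RefSeq (GRCm38.p6) held entries for 67 members, and for 3 of the 4 in question. Kcng1 had none. The 250 bases before the annotated start are printed 5′ to 3′ on the gene's strand, with capitals marking the GC box GGGCGG, the TATA box TATAAA and the CRX core TAATCC, each searched on both strands. No match of these motifs overlapped another. The GC box was found in 43.5% of the 92 member entries and in 32.7% of all 32851 entries, the TATA box in 3.26% and 12.4%, and the CRX core in 2.17% and 6.25%.
Kcna4, chr2:107290339-107290588, plus strand: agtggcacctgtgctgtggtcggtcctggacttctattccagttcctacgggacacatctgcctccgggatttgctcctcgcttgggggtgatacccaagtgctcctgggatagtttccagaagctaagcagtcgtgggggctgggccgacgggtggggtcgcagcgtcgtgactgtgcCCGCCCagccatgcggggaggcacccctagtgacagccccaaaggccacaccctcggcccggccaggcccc
Kcnrg, chr14:61607207-61607456, plus strand: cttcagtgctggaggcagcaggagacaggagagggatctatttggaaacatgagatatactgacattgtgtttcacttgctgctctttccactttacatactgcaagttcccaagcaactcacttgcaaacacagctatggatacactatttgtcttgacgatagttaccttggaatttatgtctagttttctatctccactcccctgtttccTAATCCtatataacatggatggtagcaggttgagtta
Kcnk15, chr2:163853500-163853749, plus strand: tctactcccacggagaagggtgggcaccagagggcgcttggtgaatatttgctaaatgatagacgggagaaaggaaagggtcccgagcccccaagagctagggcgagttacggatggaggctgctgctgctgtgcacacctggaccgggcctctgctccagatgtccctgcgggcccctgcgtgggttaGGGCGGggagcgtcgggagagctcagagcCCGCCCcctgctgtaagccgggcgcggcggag
Kcna4 had a GC box whose first base lay 71 bases before the start, and Kcnk15 had GC boxes at 61 and 32 bases. Kcnrg had a CRX core at 37 bases and no GC box in this window. No motif was thus common to the 3 windows.

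Kcna4, which encodes a rapidly inactivating A-type Kv1 channel, was the one member past the threshold for SH-42. Its log2 ratio was -0.62, -0.65 and -0.68 on SH-42 replicates 1 to 3, and -0.68, -0.58 and -0.80 on SH-80 replicates 1 to 3. All 6 arrays were alike, and the compounds overlapped. The mean was -0.65 ± 0.0602 (SE, n = 3) for SH-42, with an adjusted p of 0.029 by limma with Benjamini-Hochberg adjustment over all genes tested and a threshold of 0.05. It was -0.69 ± 0.0602 (SE, n = 3) for SH-80, with a limma adjusted p of 0.015. Here and below, n counts the compound's own arrays, while the SE is the model's, from an error shared by all 6 arrays. In folds, Cy3 was 1.57-fold and 1.61-fold lower. The difference SH-42 minus SH-80 was 0.04, with a 95% interval of -0.16 to 0.25.

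Both channels of Kcna4 were bright. Log2 Cy3 signals were 12.21 on SH-42 replicate 1 and 11.62 to 11.84 on the other 5 arrays, and Cy5 signals were 12.82 and 12.36 to 12.50. Replicate 1 of SH-42 was thus the highest in both channels, while the gap between channels stayed alike. On the slide that held both compounds, the ratio of SH-42 replicate 3 lay within the range of the SH-80 arrays.

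For SH-42, Kcna4 was 1 of 73 tested members past the threshold (1.37%), against a background of 0.603% of all genes tested. In the direction of lower Cy3 the background was 0.544%, and in that of higher Cy3, with no member, 0.0582%. At an unadjusted p under 0.05 there were 17 members (23.3%, against 23.4% of all genes). The limma adjusted p of Kcna4 for SH-42 was 0.0246 without SH-42 replicate 1. The adjusted p was above 0.05 without SH-42 replicate 2 (0.0647) or 3 (0.235), without SH-80 replicate 1 (0.128), 2 (0.0867) or 3 (0.0576), and with the slide as a fixed block (0.0912). By limma it was also above 0.05 with normexp offset 0 (0.0574), a trended and robust prior (0.178), scale normalization between arrays (0.11) and the SH-42 arrays alone (0.373). In the fits where it did not pass, 0% to 0.0166% of all genes did. Centring arrays on the median in place of loess gave 17 member calls for SH-42, 10 higher and 7 lower in Cy3, where 37.5% of all genes were called, and the all-gene median then became -0.245 in place of -0.0334. The SH-42 value of Kcna4 was -1.13 in that setting. With scale normalization between arrays, where it did not pass, it was -1.01 with an SE of 0.303.

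For SH-80, 4 of 73 tested members passed (5.48%), against a background of 14.6% of all genes tested. All 4 were lower in Cy3, against 10% of all genes called in that direction, and no member was called higher, against 4.61%. Beside Kcna4 these were Kcnrg, Kcnk15 and Kcng1. At an unadjusted p under 0.05 there were 15 members (20.5%, against 35.4%). Markers of lens, pigment epithelium, microglia and endothelium had positive medians on each SH-80 array, of 1.68 to 3.47, 0.445 to 1.04, 0.41 to 0.548 and 0.0876 to 0.139. Medians were negative on each of them for markers of horizontal cells, at -0.273 to -0.158, ganglion cells, at -0.417 to -0.0586, bipolar cells, at -0.342 to -0.138, and surface epithelium, at -1.66 to -0.232. The part of these markers in the SH-80 calls was not tested.

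Kcnrg encodes a soluble regulator that is known to hinder the assembly of Kv1 channels. Its log2 ratio was -0.59, -0.49 and -0.73 on the SH-80 arrays, and -0.14, -0.16 and -0.60 on the SH-42 arrays. Only SH-42 replicate 3, from the slide of the SH-80 arrays, reached their range. The mean for SH-80 was -0.60 ± 0.104 (SE, n = 3), with a limma adjusted p of 0.0287, and 0.00916 without SH-42 replicate 1. It was -0.93 from processed signals, -0.92 from the deposited value table and -0.38 with the slide as a fixed block. For SH-42 it was -0.30 ± 0.104 (SE, n = 3), with a limma adjusted p of 0.175. A dimmer probe of Kcnrg gave -0.24 for SH-80.

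Kcnk15 encodes a tandem-pore subunit of the acid-sensitive group. Its log2 ratio was -0.57, -0.55 and -0.36 on the SH-80 arrays, and -0.32, -0.06 and -0.60 on the SH-42 arrays. The ranges overlapped. The fit gave -0.49 ± 0.106 (SE, n = 3) for SH-80 with a limma adjusted p of 0.0369, and 0.0173 without SH-42 replicate 1, but its Cy3 signal was not well above background on any array. Where Cy3 had only such a bound, Cy5 was set against the lowest Cy3 signal that counted as above background, or the probe's own where that was higher, which made Cy3 at least 1.15-fold lower for SH-80. The SH-80 mean of Kcnk15 varied with the processing: it was -0.85 with normexp offset 0, -1.84 from processed signals, -1.83 from the deposited value table, -0.26 with median centring and -0.29 with the slide as a fixed block.

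Kcng1 encodes a silent subunit that modifies Kv2 channels. Its log2 ratio was -0.22, -0.45 and -0.63 on the SH-80 arrays, and -0.31, -0.07 and -0.38 on the SH-42 arrays. The mean for SH-80 was -0.43 ± 0.096 (SE, n = 3), with a limma adjusted p of 0.0381, and 0.0175 without SH-42 replicate 1. That mean was -0.85 with normexp offset 0, -1.52 from processed signals, -1.51 from the deposited value table and -0.05 with median centring. A dimmer probe that did not pass the filter gave -0.0046. The Cy3 signal of Kcng1 was not well above background on any array. Its mean Cy5 on the SH-80 arrays did not exceed the lowest Cy3 signal that counted as above background, so no bound on the fold is given. Kcng1 and Kcnk15 were thus measured above background in Cy5 alone.

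**Figure D1:**
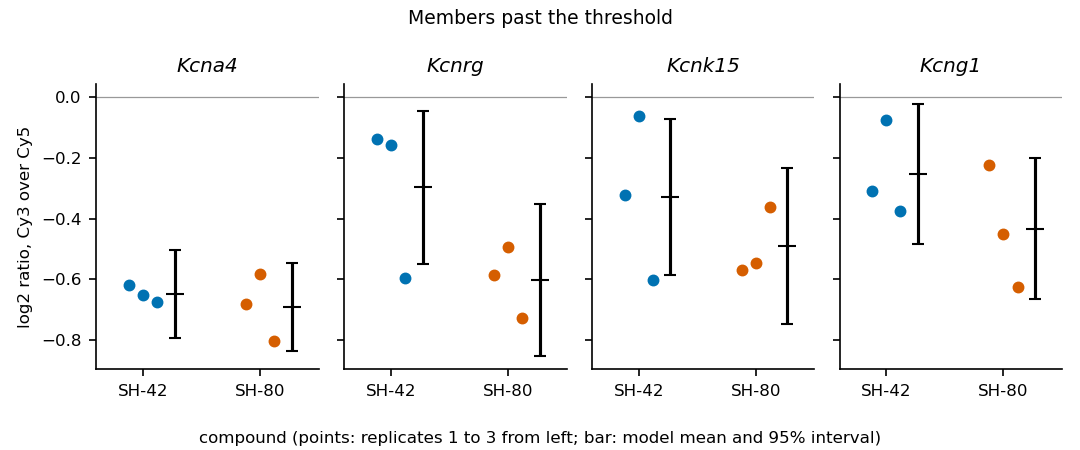
Log2 ratio of Cy3 over Cy5 (vertical axis) for the 4 members past the threshold, by compound, with the 3 arrays of a compound as points and the model mean with its 95% interval as a bar. The 6 points of Kcna4 lie between -0.80 and -0.58, whereas the SH-42 points of Kcnrg, Kcnk15 and Kcng1 spread from -0.06 to -0.60.

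The SH-80 calls depended on the arrays in the fit. Without SH-42 replicate 1, whose spread enters the shared error, 23 members passed for SH-80, 9 higher and 14 lower in Cy3, and 38.8% of all genes passed. The means of the SH-80 arrays were the same in that fit. Leaving out any of the SH-80 arrays left no call for SH-80, among members or among all genes (0%). The lowest limma adjusted p of the 4 members was then 0.126 without replicate 1, 0.0803 without replicate 2 and 0.149 without replicate 3. With the slide as a fixed block, which the SH-42 arrays alone set, neither a member nor any other gene passed (0%). Kcna4 then had a limma adjusted p of 0.345. The 3 SH-80 arrays fitted alone, all on one slide, gave 22 members, 9 higher and 13 lower, against 38.2% of all genes. Median centring in place of loess gave 7, of which 2 were higher and 5 lower, against 15.1% of all genes, with an all-gene median of -0.149 in place of -0.0303, and Kcng1 and Kcnk15 at adjusted p of 0.784 and 0.164 by limma.

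Several of the members added without SH-42 replicate 1 were bright enough to be read in both channels on each array. The auxiliary beta subunit Kcnab2 had 0.38, 0.36 and 0.21 on the SH-80 arrays and 0.56, 0.11 and 0.36 on the SH-42 arrays. It was thus positive on all 6. Its mean for SH-80 was 0.31 ± 0.0917 (SE, n = 3), with a limma adjusted p of 0.0656 over all arrays and 0.0169 without SH-42 replicate 1. Kcnip1, a calcium sensor that binds Kv4 channels, had 0.10, 0.44 and 0.39 on the SH-80 arrays and 1.30, 0.17 and 0.28 on the SH-42 arrays. Its mean for SH-80 was 0.31 ± 0.216 (SE, n = 3), and its limma adjusted p was 0.35 over all arrays and 0.0248 without SH-42 replicate 1, where the SE was 0.0762. Kcna1, a Kv1 channel of axons, behaved in the same way, with limma adjusted p of 0.469 and 0.0241. Kcnd3, a Kv4 pore subunit, lay on the other side with a mean of -0.25 for SH-80, at 0.46 and 0.0192, but a dim second probe of it gave 0.34.

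Across members, the median ratio differed most on SH-42 replicate 1. It was 0.41 there, -0.02 and -0.03 on SH-42 replicates 2 and 3, and -0.04, 0.02 and -0.07 on the SH-80 arrays. On SH-42 replicate 1, 36 of 73 members were above 0.5 (49.3%), against 8.5% of all genes, and 5 were below -0.5 (6.85%), against 12.8%. On the other 5 arrays 0 to 3 members were above 0.5. Among all genes the median on that array was -0.02, which the normalization within arrays holds near 0.

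**Figure D2:**
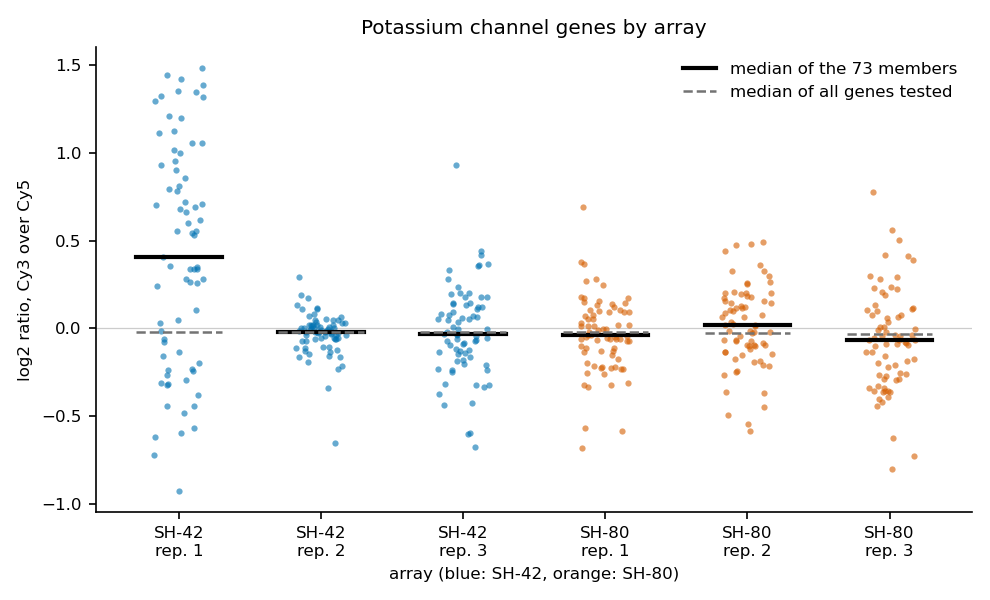
Log2 ratio of Cy3 over Cy5 (vertical axis) of the 73 tested members on each of the 6 arrays, 1 point a gene, with the median of the members as a solid line and that of all genes tested as a dashed line. On SH-42 replicate 1 the members reach from -0.93 to 1.48 with a median of 0.41, and on the other 5 arrays their median lies near that of all genes.

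The median over members followed that array. For SH-42 it was 0.148, against -0.0334 for all genes, with 49 of 73 members above 0 (67.1%, against 43%). Without SH-42 replicate 1 it was -0.0229, with 35 members above 0 (47.9%, against 43.9%). For SH-80 it was -0.0417, against -0.0303, with 31 of 73 above 0 (42.5%, against 44.4%). It became 0.0817 with the slide as a fixed block, a value that carries the gap between the SH-42 arrays.

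The shift of SH-42 replicate 1 lay in the Cy5 channel, which the labels call the control. Among the 53 members above background throughout, Cy5 was lowest on that array for 39 (73.6%, against 45.7% of all such genes) and highest for 8 (15.1%, against 30.7%). Cy3 was lowest there for 12 and highest for 7, with no share for all genes counted. On the other arrays Cy3 was lowest for 4 to 13 of the 53 members and highest for 8 to 11. The median SD over the 6 arrays was 0.0507 in Cy3 and 0.35 in Cy5. For all genes above background throughout it was 0.0561 and 0.149. Without SH-42 replicate 1 the Cy5 value fell to 0.0997 for members and 0.095 for all genes. Cy5 was the more variable channel for 47 of the 53 (88.7%, against 88.8% of all such genes).

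Kcnv2, whose product is part of the outward current of photoreceptor inner segments, showed this in modest form. It had log2 Cy3 signals of 13.89 to 13.96 over the 6 arrays, and Cy5 signals of 13.25 on SH-42 replicate 1 and 13.75 to 13.91 on the others. Cy3 hardly varied, and the lone low value was the Cy5 of that array. The log2 ratio of Kcnv2 was 0.71, 0.05 and 0.06 for SH-42 and 0.01, 0.20 and 0.07 for SH-80. It passed in no comparison, with a limma adjusted p of 0.268 for SH-42 and 0.642 for SH-80, and 0.601 and 0.191 without SH-42 replicate 1. The difference between compounds had a 95% interval of -0.28 to 0.64, and of -0.25 to 0.17 without that array.

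Kv3 and Kv4 channels, which speed repolarisation and carry A-type currents, had larger gaps on that array. Kcnc2 had log2 Cy3 signals of 9.55 to 9.70, and Cy5 signals of 8.17 on SH-42 replicate 1 and 9.68 to 9.88 on the others. Its ratio was 1.39 there and -0.18 to -0.02 elsewhere. All 4 Kv3 genes were positive on SH-42 replicate 1, with a median of 0.89, and none was positive on SH-42 replicates 2 and 3. For Kcnc1 the 3 probes on the array gave 1.06, 0.66 and 0.95 on SH-42 replicate 1. Kcnd2 had a ratio of 1.11 there and -0.26 to 0.06 elsewhere. Of 3 Kv4 genes, Kcnd1 alone was not positive on it, at -0.08.

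Within Kv1, members went both ways on SH-42 replicate 1. Kcna1 had 1.45, against 0.04 to 0.48 elsewhere, and Kcna6 had 0.80, against -0.29 to -0.0035. Kcna2, which joins Kcna1 in axonal channels, had 0.78, against -0.33 to -0.07. Kcna4 and Kcna7 were negative there as on the other arrays. The EAG-group channel Kcnh5 had 1.06, against -0.34 to -0.06. Kcnh1 was close to the limit of detection, with ratios from -0.21 to 0.41.

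The auxiliary subunits had some of the largest gaps. Kcne2, a single-pass subunit that joins several alpha subunits, had log2 Cy3 signals of 12.62 to 12.70, and Cy5 signals of 11.20 on SH-42 replicate 1 and 12.69 to 13.03 on the others. Kcnip4, a calcium sensor for Kv4 channels, had Cy3 signals of 12.28 to 12.35, and Cy5 signals of 10.86 and 12.40 to 12.77. Kcnip3, of the same family and also known as the transcriptional repressor DREAM, had 12.54 to 12.59, and 11.44 and 12.40 to 12.61. These 3 genes thus had nearly constant Cy3 signals and 1 low Cy5 signal each. A second, dimmer probe of Kcnip4 gave 1.21 on SH-42 replicate 1, close to the 1.42 of the brightest one, whereas that of Kcnip3 gave 0.03, against 1.12. Of the 13 tested auxiliary genes, 10 were positive on that array, with a median of 0.69.

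Among calcium- and sodium-activated channels, Kcnma1, the pore of the large-conductance BK channel, had log2 Cy3 signals of 12.55 to 12.66, and Cy5 signals of 11.27 on SH-42 replicate 1 and 12.49 to 12.73 on the others. Its ratio was 1.34 there and -0.07 to 0.06 elsewhere, and a second probe gave 1.07 there. The small-conductance channel Kcnn2 had 1.32, against 0.10 to 0.36, and the sodium-activated Kcnt1 had 1.00, against -0.40 to 0.05. The related Kcnn3 had -0.38, against -0.26 to 0.12, with Cy3 not well above background. The median of the 5 tested genes was 1.00 on that array.

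**Figure D3:**
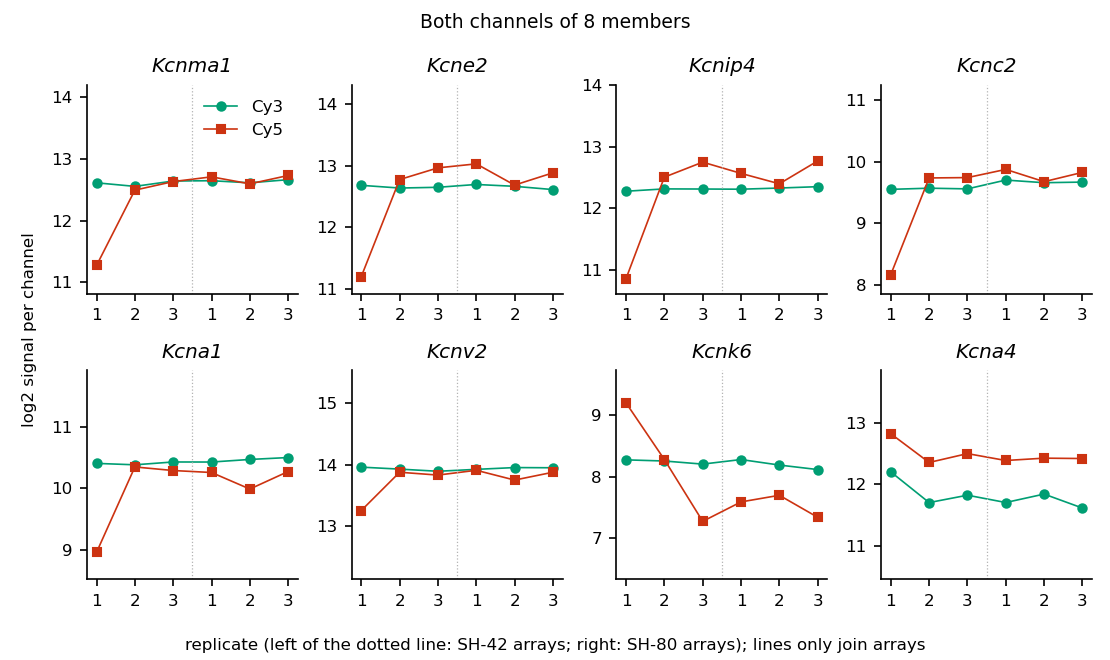
Log2 signal (vertical axis, equal span in each panel) in Cy3 and Cy5 on the 6 arrays for 8 members, with lines that only join points. In Kcnma1, Kcne2, Kcnip4, Kcnc2, Kcna1 and Kcnv2 the Cy5 signal of SH-42 replicate 1 lies below the rest, in Kcnk6 it lies above, and in Kcna4 both channels are highest there.

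Inward rectifiers were mixed. Kcnj14 had a ratio of 0.93 on SH-42 replicate 1 and -0.31 to 0.13 elsewhere, Kcnj9 and Kcnj5, both G-protein-gated, had 1.35 and 1.32, and Kcnj12 had 0.68. Kcnj13, the pigment epithelium channel, had -0.44 and -0.06 on SH-42 replicates 1 and 2, 0.42 on replicate 3, and 0.25, 0.18 and 0.50 on the SH-80 arrays. A second probe of it gave a mean of 0.36 for SH-42, against -0.03 for the brightest. The 4 tested pigment epithelium markers were positive on all 6 arrays, with medians of 0.296, 0.521 and 1.24 for SH-42 and 0.445, 0.597 and 1.04 for SH-80. Their part in the Kcnj13 values was not tested. Kcnj8, the pore of the vascular ATP-sensitive channel, was dim, and its ratios were 0.28, 0.0032 and 0.35 for SH-42 and 0.36, 0.15 and 0.0063 for SH-80. Kcnj2, a strong inward rectifier, lay at the filter, with Cy3 not well above background on any array.

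The tandem-pore channels were divided on SH-42 replicate 1, with a median of -0.14. Of 10 tested genes 4 were positive there, against 47.1% of all genes. Kcnk1, a weakly inward-rectifying leak channel, had ratios of -0.17 to 0.11 over the 6 arrays. Its differences from 0 were small, with 95% intervals of -0.21 to 0.13 for SH-42 and -0.18 to 0.15 for SH-80. Kcnk3, an acid-sensitive channel, had 0.86 on SH-42 replicate 1 and 0.02 to 0.18 elsewhere.

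Kcnk6 and Kcnk13 ran opposite to most members. Kcnk6, a leak channel known in macrophages, had log2 Cy5 signals of 9.20, 8.28 and 7.27 on SH-42 replicates 1 to 3 and 7.59, 7.70 and 7.34 on the SH-80 arrays, with Cy3 at 8.12 to 8.28. Its ratio was -0.93, -0.02 and 0.93 for SH-42 and 0.69, 0.49 and 0.78 for SH-80. Kcnk13, the leak channel of microglia, had -0.44, 0.05 and 0.20, then 0.28, 0.33 and 0.42. Both genes thus separated SH-42 replicate 1 from the 4 arrays of the other slide, with SH-42 replicate 2 between. The SH-80 mean of Kcnk6 was 0.65 ± 0.309 (SE, n = 3), with a limma adjusted p of 0.186 over all arrays and 0.0285 without SH-42 replicate 1, and that of Kcnk13 was 0.34 ± 0.121 (SE, n = 3), at 0.103 and 0.01. Without that array, whose spread enters the shared error, the SE was 0.17 for Kcnk6 and 0.0552 for Kcnk13.

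Microglial markers varied alongside. All 5 were negative on SH-42 replicate 1, with a median of -0.959, and all 5 were positive on SH-42 replicate 3 and on the SH-80 arrays, with medians of 0.735, 0.455, 0.41 and 0.548. On SH-42 replicate 2 the median was -0.0222. The log2 of their summed Cy5 signal was 14.55 on SH-42 replicate 1, 13.42 on replicate 2 and 12.61 to 12.90 on the rest, with Cy3 at 13.32 to 13.41. Their part in the values of Kcnk6 and Kcnk13 was not tested.

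Most neuronal markers were also high on SH-42 replicate 1. Median ratios were 1.05 for 6 ganglion cell markers, 1.38 for 5 amacrine, 0.826 for 6 bipolar, 0.634 for 5 rod and 0.652 for 4 cone markers, all of them positive. Horizontal cell markers did not follow, with a median of 0.0204 and 2 of 3 positive. The summed Cy5 signal of the ganglion cell markers was 14.61 (log2) on that array and 15.70 to 16.00 on the others, and that of the rod markers 18.48 and 18.96 to 19.21. The 5 Müller markers were all negative, with a median of -0.755. Markers of pericytes, skeletal muscle, red cells, surface epithelium and endothelium had medians of -1.02, -1.23, -0.699, -0.225 and -0.0978, and lens markers had 2.27, though lens markers were also at 0.665 to 3.47 on the other arrays. The part of these markers in the members' values was not tested.

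**Figure D4:**
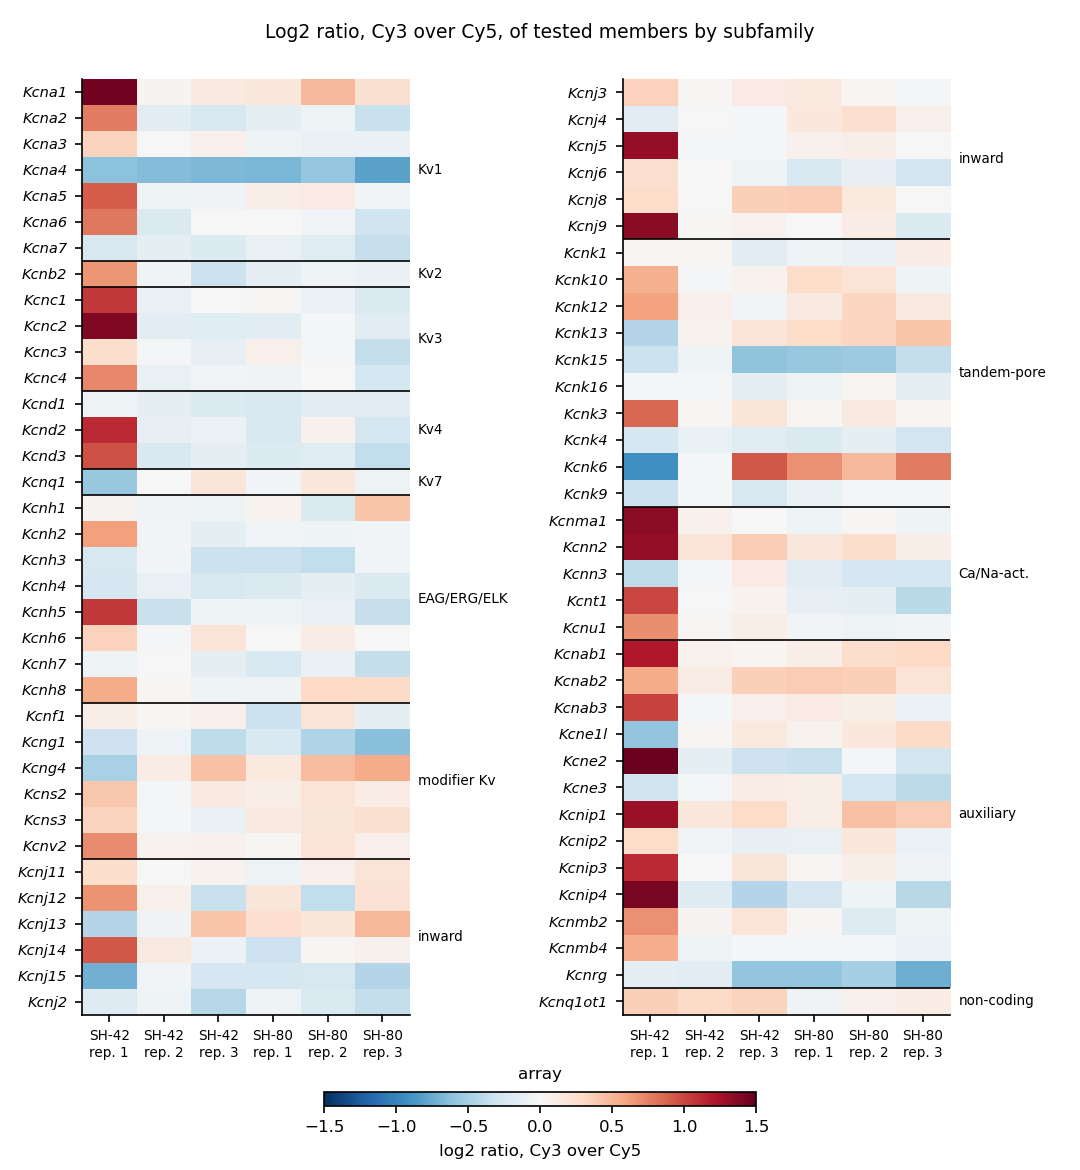
Log2 ratio of Cy3 over Cy5 (colour, scale under the panels) of tested members, 1 row a gene grouped by subfamily, on the 6 arrays. The column of SH-42 replicate 1 is red for most members, Kcna4 is blue on every array, and Kcnk6 is blue on SH-42 replicate 1 and red on the 4 arrays of the other slide.

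Between the compounds, which were given at the same dose and time, no member passed for SH-42 minus SH-80, against 0% of all genes, and the smallest limma adjusted p among members was 0.692. At an unadjusted p under 0.05 there were 3 members (4.11%, against 3.9% of all genes): Kcnq1ot1, Kcnj4 and Kcnj6. Array ranges of the compounds did not overlap for 8 members (11%), against 13.5% of all genes. The median difference over members was 0.163, against 0.015 for all genes, and 0.00696 without SH-42 replicate 1. No alternative setting in which this difference was fitted gave a member call.

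Kcnq1ot1, the antisense RNA that silences neighbouring imprinted genes, was alike within each compound. Its log2 ratio was 0.36, 0.29 and 0.33 for SH-42 and -0.05, 0.06 and 0.12 for SH-80. The ranges did not overlap, and the SH-42 mean of 0.33 ± 0.0563 (SE, n = 3) had a limma adjusted p of 0.0839, and 0.0717 without SH-42 replicate 1. The difference was 0.28, with a 95% interval of 0.09 to 0.48 before any adjustment and a limma adjusted p of 0.692. A second probe gave -0.05 for SH-42 and -0.22 for SH-80, so the probes differed in sign while the gap between compounds had the same direction. On that probe the arrays gave 0.14, -0.15 and -0.15 for SH-42 and -0.18, -0.15 and -0.32 for SH-80. SH-42 replicates 2 and 3 thus lay level with SH-80 replicate 2.

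Kcnj4, a strong inward rectifier, had ratios of -0.16, -0.0012 and -0.03 for SH-42 and 0.16, 0.25 and 0.07 for SH-80. Kcnj6, a G-protein-gated channel, had 0.24, -0.01 and -0.06, then -0.22, -0.12 and -0.29. The differences SH-42 minus SH-80 were -0.22 (95% interval -0.44 to -0.01) and 0.27 (0.01 to 0.53), both at a limma adjusted p of 0.692. Without SH-42 replicate 1 both intervals held 0, at -0.38 to 0.02 and -0.03 to 0.38. For most members the interval was wide: it ran from -0.35 to 1.37 for Kcnma1, from -1.72 to 0.40 for Kcnk6 and from -0.58 to 1.68 for Kcne2. Without SH-42 replicate 1 these were -0.11 to 0.25, -0.85 to 0.45 and -0.31 to 0.27. With all arrays it was narrow for Kcnk1, at -0.26 to 0.21, and for Kcna4.

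Genes that work with potassium channels were read in the same fits. Of 46 in the list, 45 were on the array and 42 were tested. None passed for SH-42, where 0.603% of all genes did, and none for SH-42 minus SH-80. For SH-80, 1 was higher and 3 were lower in Cy3, 9.52% of those tested against 14.6% of all genes, so that the list held no larger share of calls than all genes. The scaffold Dlg4 had a mean of 0.41 ± 0.084 (SE, n = 3; limma adjusted p 0.0339). The pacemaker channel Hcn2 had -0.26 ± 0.0508 (0.0326), the sodium pump subunit Atp1b2 -0.46 ± 0.0785 (0.0287), and Vapa, which anchors Kv2 channels at membrane contacts, -0.38 ± 0.0765 (0.0332). For SH-42 the means of these 4 genes were 0.50, -0.23, -0.24 and -0.32 in the same order, and none of them passed. Without SH-42 replicate 1, Dlg4 passed for SH-42 (limma adjusted p 0.0465).

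Where a gene had several probes, they did not always go together. Of 31 members with several probes, 22 had at least 2 past the filter, and the probes differed in the sign of the mean for 7 members for SH-42 and 11 for SH-80. Kcnd3, Kcnip3, Kcnmb2 and Kcnq1ot1 were on both lists. Of the 4 members past the threshold, Kcnrg alone had a second probe past the filter.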

How the data were processed

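Spot and local background intensities in both channels, and a log10 ratio of processed red over green, were deposited per the file headers. Agilent Feature Extraction is given as version 11.0.1.1 in the headers and as 9.3.2.1 in the submitters' processing notes. The deposited values of the series held, from its values, processed Cy5 over Cy3 as log2, shifted by 1 number on each array. Set against the scanner values, 99.7% of entries matched that shift to within 0.01, with r of 0.9997 to 0.9999 across probes and column medians of -0.0754 to -0.0464. Its direction as to the control is not settled.

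Median spot signals were corrected by normexp with offset 50 and normalized by loess within arrays. Outlier spots (1095) were left out and spots averaged per probe. Channel levels were taken after Aquantile. The scanner files list accessions, so symbols came through RefSeq names (26055 of 39429 probes, 66.1%), used for names alone. Other probes kept their own names and are counted as genes here. The brightest probe by mean log2 signal over both channels and all arrays stood for a gene, and was tested where Cy3 or Cy5 stood well above background on 3 or more arrays.

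All 6 arrays were fitted with 1 coefficient per compound by lmFit and eBayes (limma 3.58.1, R 4.3.3), two-sided, adjusted by Benjamini-Hochberg over 24061 genes, with a threshold of 0.05. The fit was tested on simulated data with independent noise per gene, without an outlying array or a slide effect. That test therefore says nothing about the part of SH-42 replicate 1 in the calls. Precision is limited by 3 arrays per compound, and no 2 arrays held identical values. Replicate numbers gave no clear pairing. Log2 ratios of same-numbered arrays of both compounds correlated at -0.16, 0.471 and 0.715, and those of unlike-numbered arrays at -0.138 to 0.759. Alternatives covered background correction, source of values, normalization, filter, choice of probe, prior, array weights, slide, replicate block and each array left out. Files were read with data.table (1.17.8) and jsonlite (2.0.0), and figures drawn with matplotlib 3.10.9 in Python 3.11.15.

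Members, lists and tests were chosen with earlier results of these data known. Genes were named by rule: members past the threshold or, where none passed, the 3 of smallest p, the brightest and most different member per subfamily, a fixed list of well-known channels, and up to 4 partner genes per comparison. Kcnk13, Kcnip4, Kcne1l, Kcnj5 and Kcna3, and members given only in counts of few or beside a named one, were chosen after their values were seen. Results of some genes of that name pattern are not reported here.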

Additional observations from a re-analysis of the deposited data

Results flagged for a closer look

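In 40 named members the Cy5 signals of the 6 arrays, which the labels call control, were searched for an array far from the others, measured as the gap to the nearest array over the whole range and set against Dixon's 95% critical value for that number. SH-42 replicate 1 was that array in 25 members. Chance gives about 1 in 20, but some of the 40 were named because that array set them apart, so that this count is no measure of how common the pattern is. Over all tested members it was 41 of 73 (56.2%), 38 as the lowest (52.1%) and 3 as the highest. Over 24041 genes with a value on each array it was 20.3%, 10.8% as the lowest and 9.44% as the highest. All Cy5 signals of that array come from one hybridisation, so these are not separate events.

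Its Cy5 signal was the lowest in 22 of the named members. Among Kv pore subunits the gap over the range was 0.741 in Kcna1, 0.817 in Kcna2, 0.67 in Kcna3, 0.725 in Kcna6, 0.766 in Kcnc1, 0.883 in Kcnc2, 0.827 in Kcnd2, 0.846 in Kcnd3 and 0.757 in Kcnh5. For the modifier Kcnv2 it was 0.757. Among auxiliary genes it was 0.784 in Kcnab1, 0.812 in Kcne2, 0.734 in Kcnip1, 0.815 in Kcnip3 and 0.806 in Kcnip4. Inward rectifiers gave 0.678 in Kcnj14, 0.86 in Kcnj5, 0.686 in Kcnj6 and 0.818 in Kcnj9, and ion-activated channels 0.837 in Kcnma1, 0.796 in Kcnn2 and 0.626 in Kcnt1. It was the highest in 3 members, with 0.692 in Kcna4, 0.729 in Kcne1l and 0.696 in Kcng4.

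Kcna3 and Kcnj4 had opposite signs on the arrays of the compounds. Every SH-42 array was positive and every SH-80 array negative for Kcna3, with a difference of 0.226. Its log2 ratios were 0.336, 0.0026 and 0.076 for SH-42, the largest on SH-42 replicate 1. For SH-80 they were -0.066, -0.104 and -0.095. The reverse signs held for Kcnj4, with a difference of -0.225. Neither difference passed in limma, with an adjusted p of 0.692 for both, so it is not shown that the compounds differ. Without SH-42 replicate 1 the difference was 0.128 for Kcna3 and -0.178 for Kcnj4, both at a limma adjusted p of 0.945.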

How the results depend on the processing

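No result turned its sign past the threshold, and SH-42 minus SH-80 gave 0 member calls in every fit run, with 0 to 7 members at an unadjusted p under 0.05 by limma (3 as reported). The counts for SH-42 and SH-80 moved with the processing. Member calls for SH-42 and SH-80, reported as 1 and 4 with 0.603% and 14.6% of all genes called, are given with those all-gene shares in brackets. They were 0 and 4 with normexp offset 0 (0% and 11%), 9 and 9 without background correction (13.2% and 19.7%), 9 and 10 from processed signals (13.4% and 18.1%), 11 and 14 from the deposited value table (15.7% and 20.1%), 17 and 7 with median centring (37.5% and 15.1%), 0 and 1 with scale normalization (0.0166% and 2.94%), 1 and 2 with a strict probe filter (1.1% and 11.5%), 1 and 9 without a filter (0.388% and 15.8%), 0 and 22 from the compound's own arrays (0% and 38.2%), 1 and 20 with array weights (1.95% and 41.9%), and 0 and 0 with a trended and robust prior or with the slide as a fixed block (0% of all genes in each). At an unadjusted p the robust prior gave 17 and 15 members and the slide block 13 and 4. The cause was not tested. Leaving out each array gave 0 to 1 calls for SH-42 (0% to 1.82% of all genes) and 0 to 23 for SH-80 (0% to 38.8%), and medians over members of -0.0229 to 0.243 for SH-42, -0.0624 to -0.0231 for SH-80 and 0.00696 to 0.258 for their difference. The SH-80 median was -0.146 with median centring, where all genes gave -0.149. It was 0.0817 with the slide block, which the SH-42 arrays alone set. With the replicate number as a block, which the data did not bear out as a pairing, counts were 1, 4 and 0 and no call changed. Filtering before the choice of probe, added after seeing the data, gave 1, 4 and 0. Among single genes, 58 values came to pass, 35 ceased to pass, 121 that passed in neither fit moved by more than 1 SD of the arrays, and the other 2482 kept their side, some of them, such as Kcng1 and Kcnk15 for SH-80, at another size. Signal near background limits the 12 tested members with a dim Cy3.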
